A study of Rattus norvegicus with 119 samples.

Results

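The AP-1 and Egr immediate early factors were followed through hippocampal arrays from rats of 3 strains raised with or without lead in the food. The listed genes were Fos, Fosb, Fosl2, Jun, Junb, Egr1, Egr2, Egr3 and Egr4, and a probe set was a member where its only gene symbol in the platform annotation was 1 of these 9. The rule gave 9 probe sets of the 29214 on the array, for 8 of the 9 genes. They were 10886031 (Fos), 10940628 and 10940647 (both Fosl2), 10878112 (Jun), 10806585 (Junb), 10800919 (Egr1), 10832802 (Egr2), 10781337 (Egr3) and 10863676 (Egr4). Fosb had no probe set that carried its symbol alone and is not described.

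The study exposed male and female Fischer, Long Evans and Sprague Dawley rats to lead acetate in the food at 250 or 750 ppm and kept controls at 0 ppm. For perinatal exposure the dams ate the lead food from 10 days before breeding until their pups were weaned, and for postnatal exposure lead food ran from birth to postnatal day 45. All rats, exposed and control, were on control food when hippocampi were taken at postnatal day 55. Each strain and sex had perinatal 250, perinatal 750, postnatal 250 and postnatal 750 ppm groups and 1 control group, which made 30 groups of 4 rats, with 3 in the Sprague Dawley male controls. The labels name no litters, so p-values measure the spread between these rats, and littermates cannot be told apart from unrelated rats.

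Immediate early genes are transcribed within minutes of synaptic activity or growth factor signals, without new protein synthesis, and their RNA is short-lived. Fos and Jun proteins pair through leucine zippers to form AP-1, while Egr proteins bind GC-rich sites through zinc fingers, and Egr1 is needed in the rodent hippocampus for lasting synaptic potentiation. Signals reach many of these genes through serum response factor at CArG boxes and through CREB at cyclic AMP response elements.

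Sequence before a start site of Egr1, Egr2, Egr4 and Junb is shown because each held a match to at least part of these motifs. The RefSeq promoter table (build GRCr8) held Egr1, Egr2, Egr4, Fosb, Fosl2 and Junb, 6 of the 9 listed genes, and not Fos, Jun and Egr3. Each sequence is the 200 bases that end just before the start site, read 5′ to 3′ on the gene's strand: chr18:26736878-26737077 (plus strand) for Egr1, chr20:21054442-21054641 (minus strand) for Egr2, chr4:119607818-119608017 (minus strand) for Egr4 and chr19:40080926-40081125 (plus strand) for Junb. Capitals mark CArG boxes and the short core of the cyclic AMP response element, TGACG or its reverse complement CGTCA.
Egr1: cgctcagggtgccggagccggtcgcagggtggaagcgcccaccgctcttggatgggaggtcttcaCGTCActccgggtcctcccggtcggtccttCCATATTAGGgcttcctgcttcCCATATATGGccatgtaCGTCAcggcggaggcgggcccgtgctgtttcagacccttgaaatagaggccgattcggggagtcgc
Egr2: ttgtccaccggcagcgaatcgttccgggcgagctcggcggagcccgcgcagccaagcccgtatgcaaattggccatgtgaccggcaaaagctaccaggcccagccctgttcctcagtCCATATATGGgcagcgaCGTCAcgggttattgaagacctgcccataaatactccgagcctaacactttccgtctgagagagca
Egr4: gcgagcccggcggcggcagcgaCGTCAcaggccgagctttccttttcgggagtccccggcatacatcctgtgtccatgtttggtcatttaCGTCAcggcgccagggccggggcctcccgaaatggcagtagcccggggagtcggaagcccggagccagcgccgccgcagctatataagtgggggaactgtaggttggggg
Junb: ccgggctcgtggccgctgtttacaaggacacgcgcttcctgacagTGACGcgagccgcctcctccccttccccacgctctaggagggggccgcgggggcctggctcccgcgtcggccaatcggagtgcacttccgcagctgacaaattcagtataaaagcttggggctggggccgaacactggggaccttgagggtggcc
Motifs were counted on both strands over the table's full window of 250 bases before to 50 bases after the start, and a match is a description of letters, not a measured site. Egr1 held 2 CArG boxes and Egr2 held 1, where 1.64% of 33469 promoters held at least 1 and 7 promoters held at least 2. The same box, CCATATATGG, begins at −83 from the start in both Egr1 and Egr2, and a TGACG core begins at −66 in both. The Egr2 sequence shown lies inside the annotated gene (chr20:21050149-21055201), so its start is not the gene's outermost one. The sequences of Egr1, Egr4 and Junb adjoin their annotated genes. These cores numbered 2 in Egr1, 1 in Egr2, 2 in Egr4 and 1 in Junb, and 21.2% of all promoters held at least 1. No CArG box was found in Egr4, Junb, Fosb or Fosl2, and no core in Fosb or Fosl2. A full cyclic AMP response element contains the core, and TGACGTCA, held by 1.83% of all promoters, was in none of the 6 windows. The AP-1 site, TGACTCA or TGAGTCA (4.63% of all promoters), was in none of them either, and the Egr site GCGNGGGCG (4.98%) was found 2 times in Fosl2.

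Values are log2 intensities, on which a difference of 1 is a ratio of 2 and no value is a true zero. The mean level of 11 probe sets listed for hippocampal principal neurons was 10.79 to 11.10 in every rat. That list includes genes of neurons in general, such as Snap25 and Rbfox3, so its level does not by itself verify the tissue label. The mean of 12 choroid plexus probe sets, markers of a tissue that lies against the hippocampus, ran from 6.67 to 10.54 per rat. Each group has its own run of label numbers, so group and run cannot be told apart, and within a run the first 2 numbers are called lower and the others upper. The Sprague Dawley male controls lack the second number of their run, so that 1 of their 3 rats is lower and 2 are upper. X-linked Eif2s3, and the mean of Ddx3x and Pbdc1, went against the sex label in 8 arrays. They were Long Evans male control 4 and female controls 1 and 3, and in Sprague Dawley female control 2, male perinatal 750 ppm rat 4, male postnatal 750 ppm rat 2 and female postnatal 750 ppm rats 2 and 4. These arrays kept their labels. Member calls lost or gained with these 8 left out are given, and values for some of the kept calls. In whole tissue, fewer cells of a type and less RNA per cell cannot be told apart.

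Among unexposed rats Long Evans had the highest mean levels of Fos, Junb, Egr1 and Egr2. Fos was 8.48, 8.23, 8.17 and 8.41 in Long Evans male controls and 8.11, 8.25, 7.41 and 8.45 in Long Evans female controls. It was 7.51, 7.51 and 7.75 in Sprague Dawley male controls and 7.46, 7.40, 7.76 and 7.68 in Sprague Dawley female controls. Every Long Evans control except female 3 lay above every Sprague Dawley control. Fos averaged 8.19 in Long Evans and 7.58 in Sprague Dawley controls, a difference of 0.60 ± 0.12 (SE, n = 8 and 7, limma, Benjamini-Hochberg adjusted p = 3.25e-05).

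The other AP-1 members were higher in Long Evans as well. Junb, a Jun family protein that can restrain Jun, averaged 9.04 in Long Evans and 8.47 in Sprague Dawley controls (0.57 ± 0.08, adjusted p = 8.35e-08). Jun, the main partner of Fos, averaged 10.01 and 9.83 in the same order (0.18 ± 0.05, adjusted p = 0.00629). Both probe sets of Fosl2, a Fos relative without the strong activation domain of Fos, were higher, by 0.18 ± 0.06 and 0.18 ± 0.05 (adjusted p = 0.0207 and 0.00771).

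In the Egr family, Egr1 ran from 11.37 to 11.90 in Long Evans controls and from 10.87 to 11.26 in Sprague Dawley controls, with no overlap. The difference was 0.71 ± 0.08 (11.75 and 11.03, adjusted p = 7.17e-11). Egr2, which drives myelin genes in Schwann cells, differed by 0.68 ± 0.11 (7.38 and 6.70, adjusted p = 5.16e-07), and Egr3 by 0.34 ± 0.08 (10.05 and 9.71, adjusted p = 0.000644). In all, 8 of 9 member probe sets were higher in Long Evans than in Sprague Dawley controls, where 24.5% of all probe sets were called. Egr4 was not called (8.45 and 8.29, adjusted p = 0.175). With the 8 arrays left out, the calls of Jun (0.13, adjusted p = 0.131) and Fosl2 10940628 (0.18, adjusted p = 0.0683) were lost, while Egr4 was called (0.28, adjusted p = 0.0424). Upper label numbers alone called 5 of 9, without Fos (0.43, adjusted p = 0.133) and both Fosl2 probe sets (0.17, adjusted p = 0.0712 and 0.17, adjusted p = 0.0562), and lower label numbers alone lost Jun (0.17, adjusted p = 0.0864).

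Against Fischer controls 6 of 9 member probe sets were higher in Long Evans, where 25.1% of all probe sets were called. Junb averaged 9.04 in Long Evans and 8.60 in Fischer controls (0.44 ± 0.08, adjusted p = 1.24e-05). Egr1 averaged 11.75 and 11.33 (0.42 ± 0.08, adjusted p = 3.48e-05), Fos 8.19 and 7.78 (0.41 ± 0.11, adjusted p = 0.00361) and Egr2 7.38 and 6.98 (0.40 ± 0.10, adjusted p = 0.00193). These 4 genes differed by similar amounts, and both Fosl2 probe sets by less (0.16 ± 0.06 and 0.19 ± 0.05). Jun (0.02), Egr3 (0.17) and Egr4 (0.16) were not called. The call of Fosl2 10940628 was lost without any 1 of Fischer control females 3 and 4, Fischer control male 3, Long Evans control females 1 and 2 and Long Evans control males 1 and 4 (adjusted p up to 0.126), and without the 8 arrays (adjusted p = 0.11). Upper label numbers alone lost Fos (0.31, adjusted p = 0.247), and lower ones alone lost both Fosl2 probe sets (0.08, adjusted p = 0.338 for 10940628 and 0.13, adjusted p = 0.0741 for 10940647). Egr3 was called with the label set as a block (0.17, adjusted p = 0.000396), with array weights (0.20, adjusted p = 0.0201) and in upper label numbers alone (0.32, adjusted p = 0.000156).

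Between Sprague Dawley and Fischer controls 2 of 9 members were called, both lower in Sprague Dawley, where 10.5% of all probe sets were called. Egr1 averaged 11.03 in Sprague Dawley and 11.33 in Fischer controls (−0.30 ± 0.08, adjusted p = 0.0112), and Jun 9.83 and 9.99 (−0.16 ± 0.05, adjusted p = 0.0255). In upper label numbers alone the Egr1 difference was −0.07, adjusted p = 0.677. The Jun call was lost without any 1 of Fischer female control 2, Fischer male control 1, Sprague Dawley female control 1 and Sprague Dawley male controls 1 and 2 (adjusted p up to 0.0771). In upper numbers Jun was not called either (−0.10, adjusted p = 0.219). With the label set as a block 4 of 9 were called, among them Egr2 (−0.29, adjusted p = 0.0371) and Egr3 (−0.17, adjusted p = 0.00146).

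**Figure D1:**
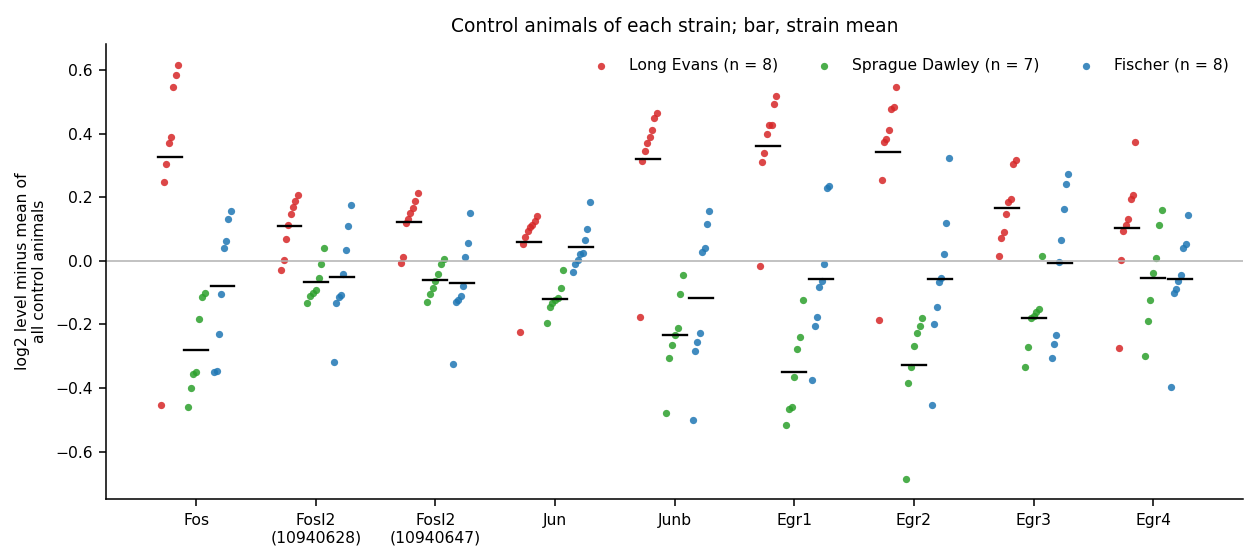
Control rats by strain (Long Evans, Sprague Dawley and Fischer, from left to right) for each member probe set on the x axis; the y axis is the log2 level minus the mean of all control rats for that probe set, points are rats and bars strain means. Long Evans points lie highest for Fos, Junb, Egr1 and Egr2, with female control 3 low at 7.41 for Fos, while the strains overlap for Egr4.

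Among related genes, 22 of 39 probe sets of other activity-induced genes were higher and 1 was lower in Long Evans than in Sprague Dawley controls. This contrast called 24.5% of all probe sets, which is the share to set beside the list counts given here. The lists were chosen with earlier results of these data known, so list counts, here and below, are descriptions and not independent support. Arc, a synaptic protein induced with Egr1, differed by 1.15 ± 0.11, adjusted p = 3.46e-14, and the nuclear receptor Nr4a1 by 1.08 ± 0.11, adjusted p = 5.42e-13. Of 9 AP-1 partners and Egr co-factors 4 were higher and 0 lower, among them Nab2, a repressor that binds Egr proteins (0.17 ± 0.04, adjusted p = 0.00213). Of 15 probe sets of upstream inputs (serum response factor, its ternary complex partners, MAP kinases and CREB co-factors) 6 were higher and 3 lower. All 12 choroid plexus probe sets were higher in Long Evans (median 0.32, none called), with rat means of 6.67 to 10.28 in Long Evans and 7.04 to 10.22 in Sprague Dawley controls, and Fos differed by 0.61, adjusted p = 2.7e-05 with that mean in the fit.

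Each exposed group was then set against the controls of its strain and sex, in 24 contrasts. Within a strain and sex these 4 contrasts share the same control rats, and their values are given side by side. In Fischer rats 1 of 72 member tests was called, where 0.00214% of all tests over the 8 contrasts were called, and 18 had an unadjusted p under 0.05. It was Fos in postnatal 750 ppm males, 1 of 9 members there, where 0.0137% of all probe sets were called.

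Fos was 8.14, 8.30, 7.95 and 8.30 in Fischer postnatal 750 ppm males, against 7.51, 7.63, 7.51 and 7.76 in male controls. The groups did not overlap, and the difference was 0.57 ± 0.10 (8.17 and 7.60, n = 4 each, limma adjusted p = 0.0156). Junb also did not overlap, at 9.15, 9.08, 8.88 and 8.66 against 8.49, 8.46, 8.22 and 8.43, but was not called (0.54 ± 0.11, adjusted p = 0.101). Junb was called with the label set as a block (0.54, adjusted p = 0.0104), which made 2 calls in this strain, with array weights (0.55, adjusted p = 0.0418) and in a single fit of all strains (0.54, adjusted p = 0.0379). Egr2 (0.33 ± 0.13, adjusted p = 1) and Egr1 (0.21 ± 0.12, adjusted p = 1) were not called. Fos in females was −0.38 ± 0.10 from control after perinatal 250 ppm, −0.24 ± 0.10 after perinatal 750 ppm, −0.34 ± 0.10 after postnatal 250 ppm and 0.21 ± 0.10 after postnatal 750 ppm, none called.

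Of the other activity-induced probe sets 2 of 39 were higher in these males, where 0.0137% of all probe sets were called. They were Apold1, an early response gene of blood vessel endothelium (1.24 ± 0.18, adjusted p = 0.00239), and Dusp1, a phosphatase that switches MAP kinases off (0.97 ± 0.17, adjusted p = 0.0201). All 12 choroid plexus probe sets were higher too (median 0.83, none called), with rat means of 7.80 to 10.08 in postnatal 750 ppm and 6.86 to 9.99 in control males. The Fos difference was 0.60, adjusted p = 0.00437 with that mean in the fit. The Fos call was lost without any 1 of male controls 1 and 3 and postnatal 750 ppm males 1, 2 and 4 (adjusted p up to 0.157), and in a single fit of all strains (adjusted p = 0.395). Neither lower (0.65, adjusted p = 0.386) nor upper label numbers alone (0.49, adjusted p = 0.715) called Fos, and further quantile normalization ended its call (0.51, adjusted p = 0.0871).

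In Long Evans rats 0 of 72 member tests were called by limma, with 27 at an unadjusted p under 0.05, where 0.0424% of all tests were called. In males 35 of 36 differences were negative, with a median of −0.20, and in females 27 of 36, with a median of −0.05. These counts are not of independent values, because the 4 contrasts of a sex share their controls and members vary together. The share of negative differences over all probe sets is not given here. Male control 4 and female controls 1 and 3 are among the arrays that go against their sex label. The lowest was Fos in perinatal 750 ppm males, at 7.76, 7.54, 7.64 and 7.07, all below the male controls given above (−0.82 ± 0.22, adjusted p = 0.241). Egr2 in postnatal 750 ppm males (−0.68 ± 0.16, adjusted p = 0.152) had the smallest adjusted p in this strain. A single fit of all strains called 3 of 72, these values of Fos (−0.82, adjusted p = 0.00334) and Egr2 (−0.68, adjusted p = 0.0207) and Junb in perinatal 750 ppm males (−0.49, adjusted p = 0.0463).

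In Sprague Dawley rats 0 of 72 were called by limma, where 0.00813% of all tests were called. An unadjusted p under 0.05 was found in 12 of the 72, and in 667 to 1346 of 29214 probe sets per contrast. The highest values were in perinatal 250 ppm males, where Fos (0.59 ± 0.13, adjusted p = 0.122), Egr1 (0.54 ± 0.11, adjusted p = 0.0758), Junb (0.51 ± 0.11, adjusted p = 0.163) and Egr2 (0.51 ± 0.14, adjusted p = 0.622) all lay above control. With the label set as a block 2 of 72 were called, Egr1 (0.56, adjusted p = 0.0344) and Junb (0.53, adjusted p = 0.0197) in these males. Array weights called Fos (0.62, adjusted p = 0.0119), Egr1 (0.57, adjusted p = 0.00467) and Junb (0.52, adjusted p = 0.0186) there, and an intensity trend with robust variance called Egr1 (0.54, adjusted p = 0.0499). In the same males Ccn1, a matrix protein gene (1.19 ± 0.19, adjusted p = 0.00537), Arc (0.89 ± 0.17, adjusted p = 0.0483), Nr4a1 (0.75 ± 0.14, adjusted p = 0.0385) and Klf2, an endothelial transcription factor (0.50 ± 0.09, adjusted p = 0.0232), were called higher, 4 of 39 activity-induced probe sets. Of all 29214 probe sets 8 were called in that contrast. Choroid plexus probe sets were higher in 1 of 12 (median −0.18).

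Averaged over sex, period and dose, Junb was lower in lead-exposed Long Evans rats than in controls. In 32 exposed rats Junb had a lowest value of 8.35, a median of 8.74 and a highest value of 9.05. In controls it was 9.18, 9.09, 9.03 and 9.06 in males and 9.17, 9.11, 8.54 and 9.13 in females. All controls except female 3 lay near the top of the exposed range or above it. The means were 8.73 exposed and 9.04 control, a difference of −0.31 ± 0.07 (limma adjusted p = 0.0399), the 1 member called of 9, where 0.212% of all probe sets were called.

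Fos, Egr1 and Egr2 lay lower without passing the test in the fit of this strain. Egr2 averaged 7.01 exposed and 7.38 control (−0.37 ± 0.09, adjusted p = 0.0736), Fos 7.82 and 8.19 (−0.37 ± 0.12, adjusted p = 0.304) and Egr1 11.55 and 11.75 (−0.20 ± 0.06, adjusted p = 0.23). A single fit of all strains called Egr2 (−0.37, adjusted p = 0.00961) and Fos (−0.37, adjusted p = 0.0251) as well as Junb, and a filter that dropped probe sets under the 40th percentile called Egr2 (adjusted p = 0.0443). Egr4 (−0.14), Fosl2 (−0.07 and −0.08), Jun (−0.07) and Egr3 (0.00) differed less, and in all 7 of 9 had an unadjusted p under 0.05. In males the groups did not overlap for Junb, at 8.35 to 8.94 exposed and 9.03 to 9.18 control. In females Junb averaged 8.79 exposed and 8.99 control.

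Of the activity-induced list Nr4a1 was lower in exposed Long Evans rats (9.63 exposed and 10.05 control, −0.42 ± 0.09, adjusted p = 0.0399), while Arc (−0.31 ± 0.07, adjusted p = 0.064) and Nr4a3 (−0.19 ± 0.05, adjusted p = 0.0652) were not called, and no partner or upstream input was called. Jdp2, a repressor of AP-1, differed by 0.08 ± 0.03, adjusted p = 0.407, Atf3, an AP-1 partner, by −0.20 ± 0.09, adjusted p = 0.579 and Nab1, an Egr co-repressor, by −0.12 ± 0.06, adjusted p = 0.643. Of the inputs, the kinases Camk4 (0.09 ± 0.04, adjusted p = 0.597) and Rps6ka5 (0.08 ± 0.04, adjusted p = 0.661) and the factor Creb1 (−0.09 ± 0.05, adjusted p = 0.714) had the smallest p. All 12 choroid plexus probe sets were lower in exposed rats (median −0.37, none called, rat means 6.82 to 10.54 exposed and 6.67 to 10.28 control), and with their mean in the fit Junb differed by −0.31, adjusted p = 0.0406. All 7 mature oligodendrocyte probe sets were higher (median 0.18, 4 called, rat means 11.43 to 11.78 exposed and 11.37 to 11.53 control), and their part in the result was not tested. The share called over all probe sets was 0.212%.

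Female control 3, the lowest Long Evans control for Junb, is among the arrays that go against their sex label. With the 8 arrays left out Junb differed by −0.38, adjusted p = 0.033, and without female control 3 alone Egr2 was also called (−0.45, adjusted p = 0.0172). The Junb call was lost without any 1 of male controls 1 to 4, female controls 1, 2 and 4, female perinatal 750 ppm rat 2 and male postnatal 750 ppm rat 3 (adjusted p up to 0.12), and within lower (−0.41, adjusted p = 0.0946) and upper label numbers alone (−0.21, adjusted p = 0.901).

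In Fischer and Sprague Dawley rats 0 of 9 members passed the test of the mean lead effect in limma, where 0% and 0.0171% of all probe sets were called. An unadjusted p under 0.05 was found for 0 of 9 in Fischer and 3 of 9 in Sprague Dawley rats. The differences ran from −0.08 to 0.02 in Fischer and from −0.07 to 0.14 in Sprague Dawley rats. Among Sprague Dawley rats Dusp6, a phosphatase specific for ERK (0.19 ± 0.05, adjusted p = 0.537), Nr4a1 (0.30 ± 0.08, adjusted p = 0.672) and Arc (0.33 ± 0.10, adjusted p = 0.999) had the smallest p of the activity-induced list and were not called. In Fischer rats these were Ptgs2, the inducible cyclooxygenase (−0.12 ± 0.04, adjusted p = 1), the opioid gene Pdyn (0.11 ± 0.05, adjusted p = 1) and the pentraxin Nptx2 (−0.10 ± 0.04, adjusted p = 1), none called. No partner or upstream input was called in these strains either. Those with the smallest p in Sprague Dawley rats were the partners Maff (0.06 ± 0.05), Jdp2 (0.03 ± 0.04) and Batf (0.05 ± 0.06) and the inputs Elk1, a ternary complex factor (−0.06 ± 0.03), the ribosomal S6 kinase Rps6ka2 (−0.07 ± 0.03) and the CREB co-activator Crtc2 (0.04 ± 0.03), each with an adjusted p of 0.999. In Fischer rats they were the partners Batf (−0.09 ± 0.07) and Fosl1 (0.04 ± 0.06), the co-factor Nab2 (−0.04 ± 0.04), Creb1 (−0.05 ± 0.04) and the Jun kinases Mapk8 (0.07 ± 0.07) and Mapk9 (0.03 ± 0.06), each with an adjusted p of 1.

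The Junb effect of lead differed between Long Evans and Sprague Dawley rats when the difference itself was tested. It was −0.41 ± 0.09 (limma adjusted p = 0.0338), from an effect of −0.31 in Long Evans and 0.10 in Sprague Dawley rats. It was the 1 member called of 9, where 0.0787% of all probe sets were called, and 4 of 9 had an unadjusted p under 0.05. Fos (−0.47 ± 0.13, adjusted p = 0.249), Egr2 (−0.45 ± 0.12, adjusted p = 0.169) and Egr1 (−0.34 ± 0.09, adjusted p = 0.25) were not called. With the label set as a block Egr1 was called too (−0.35, adjusted p = 0.0259), and lower label numbers alone called Egr1 (−0.54, adjusted p = 0.0231) and Egr2 (−0.78, adjusted p = 0.0205).

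Of the activity-induced list 4 of 39 had a lower effect in Long Evans than in Sprague Dawley rats, where 0.0787% of all probe sets were called. They were Nr4a1 (−0.72 ± 0.12, adjusted p = 0.000586), Dusp6 (−0.39 ± 0.07, adjusted p = 0.00193), Arc (−0.65 ± 0.12, adjusted p = 0.00314) and Dusp1 (−0.75 ± 0.17, adjusted p = 0.0338). The Junb value was −0.48, adjusted p = 0.0137 with the 8 arrays left out. Its call was lost without any 1 of Long Evans male controls 1 and 2, Long Evans female controls 1, 2 and 4 and controls 1 and 2 of each sex in Sprague Dawley (adjusted p up to 0.174), and within lower (−0.56, adjusted p = 0.0773) and upper label numbers alone (−0.30, adjusted p = 0.775). All 12 choroid plexus probe sets had a lower effect in Long Evans (median −0.60), and with their mean in the fit Junb gave −0.42, adjusted p = 0.0327. In the Long Evans minus Fischer difference (0.13% of all probe sets called) and the Sprague Dawley minus Fischer difference (0.0103%) 0 of 9 members were called by limma, with 3 and 0 at an unadjusted p under 0.05.

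Dose was followed by 4 members in Fischer rats: Fos, Junb, Egr2 and Egr1 were higher at 750 than at 250 ppm. They were 4 of 9 members, where 0.0719% of all probe sets (21) were called. Fos ran from 7.51 through a median of 7.83 to 8.02 in 8 controls, from 7.23 through 7.51 to 7.94 in 16 rats at 250 ppm and from 7.54 through 7.91 to 8.30 in 16 rats at 750 ppm. The control mean of 7.78 thus lay between those of the doses. Fos averaged 7.97 at 750 ppm and 7.53 at 250 ppm (0.44 ± 0.05, adjusted p = 6.03e-06, limma).

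In each period Fos was higher on average at the higher dose. After postnatal exposure it ran from 7.95 to 8.30 at 750 ppm and from 7.29 to 7.94 at 250 ppm, with no overlap. After perinatal exposure it ran from 7.54 to 7.87 at 750 ppm and from 7.23 to 7.73 at 250 ppm, with overlap. The test of whether the dose difference depended on the period called 0 of 9 members in Fischer rats by limma, where 0.00342% of all probe sets were called, with 1 of 9 at an unadjusted p under 0.05.

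Junb averaged 8.75 at 750 ppm and 8.44 at 250 ppm in Fischer rats (0.31 ± 0.05, adjusted p = 0.0063). Egr2 averaged 7.08 and 6.74 in the same order (0.35 ± 0.07, adjusted p = 0.0166), and Egr1 11.44 and 11.14 (0.30 ± 0.06, adjusted p = 0.0321). For all 3 genes the doses overlapped and the control mean lay between them, at 8.60 for Junb, 6.98 for Egr2 and 11.33 for Egr1. Egr3, Egr4, Jun and both Fosl2 probe sets differed by −0.03 to 0.04 and were not called. With the label set as a block limma gave an adjusted p of 3.34e-06 for Fos, 0.000135 for Egr2 and 6.5e-06 for Egr1. Fos, Junb and Egr2 were called whichever 1 of the 40 rats was left out, and Egr1 lost its call in 16 of these 40 fits (adjusted p up to 0.0854). Those 16 left out 1 of perinatal 250 ppm females 3 and 4, perinatal 750 ppm females 1 and 4, postnatal 250 ppm females 3 and 4, postnatal 750 ppm females 1 and 2, perinatal 250 ppm males 3 and 4, perinatal 750 ppm males 1 and 2, postnatal 250 ppm males 3 and 4 and postnatal 750 ppm males 1 and 2.

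Of the other activity-induced probe sets 10 of 39 were higher and 1 lower at 750 than at 250 ppm in Fischer rats. No partner or upstream input was called, and the share called over all probe sets was 0.0719%. Apold1 differed by 0.78 ± 0.09, adjusted p = 8.05e-06, Dusp1 by 0.69 ± 0.09, adjusted p = 2.61e-05, Nr4a1 by 0.49 ± 0.08, adjusted p = 0.00104 and Arc by 0.48 ± 0.08, adjusted p = 0.00148. The probe set that was lower was Ptgs2 (−0.18 ± 0.03, adjusted p = 0.00801). All 12 choroid plexus probe sets were higher (median 0.88, none called), with rat means of 6.86 to 10.42 at 750 ppm and 6.75 to 9.78 at 250 ppm. All 10 meninges probe sets were higher (median 0.17, none called, rat means 7.96 to 9.04 and 7.81 to 9.12), and 10 of 11 principal neuron probe sets lower (median −0.05, none called). With the choroid plexus mean in the fit Fos differed by 0.47, adjusted p = 1.56e-06 and Junb by 0.31, adjusted p = 0.0171, while Egr1 (0.31, adjusted p = 0.0667) and Egr2 (0.33, adjusted p = 0.0667) were no longer called, and the part of the meninges genes was not tested.

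In Long Evans and Sprague Dawley rats 0 of 9 members differed between doses by limma, where 0.0548% and 0.00342% of all probe sets were called, and 2 and 4 of 9 had an unadjusted p under 0.05. In Sprague Dawley rats Egr2 (−0.24 ± 0.07, adjusted p = 0.884) and Fos (−0.20 ± 0.06, adjusted p = 1) had the opposite sign to Fischer rats. Whether the dose difference differs between strains was not tested.

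**Figure D2:**
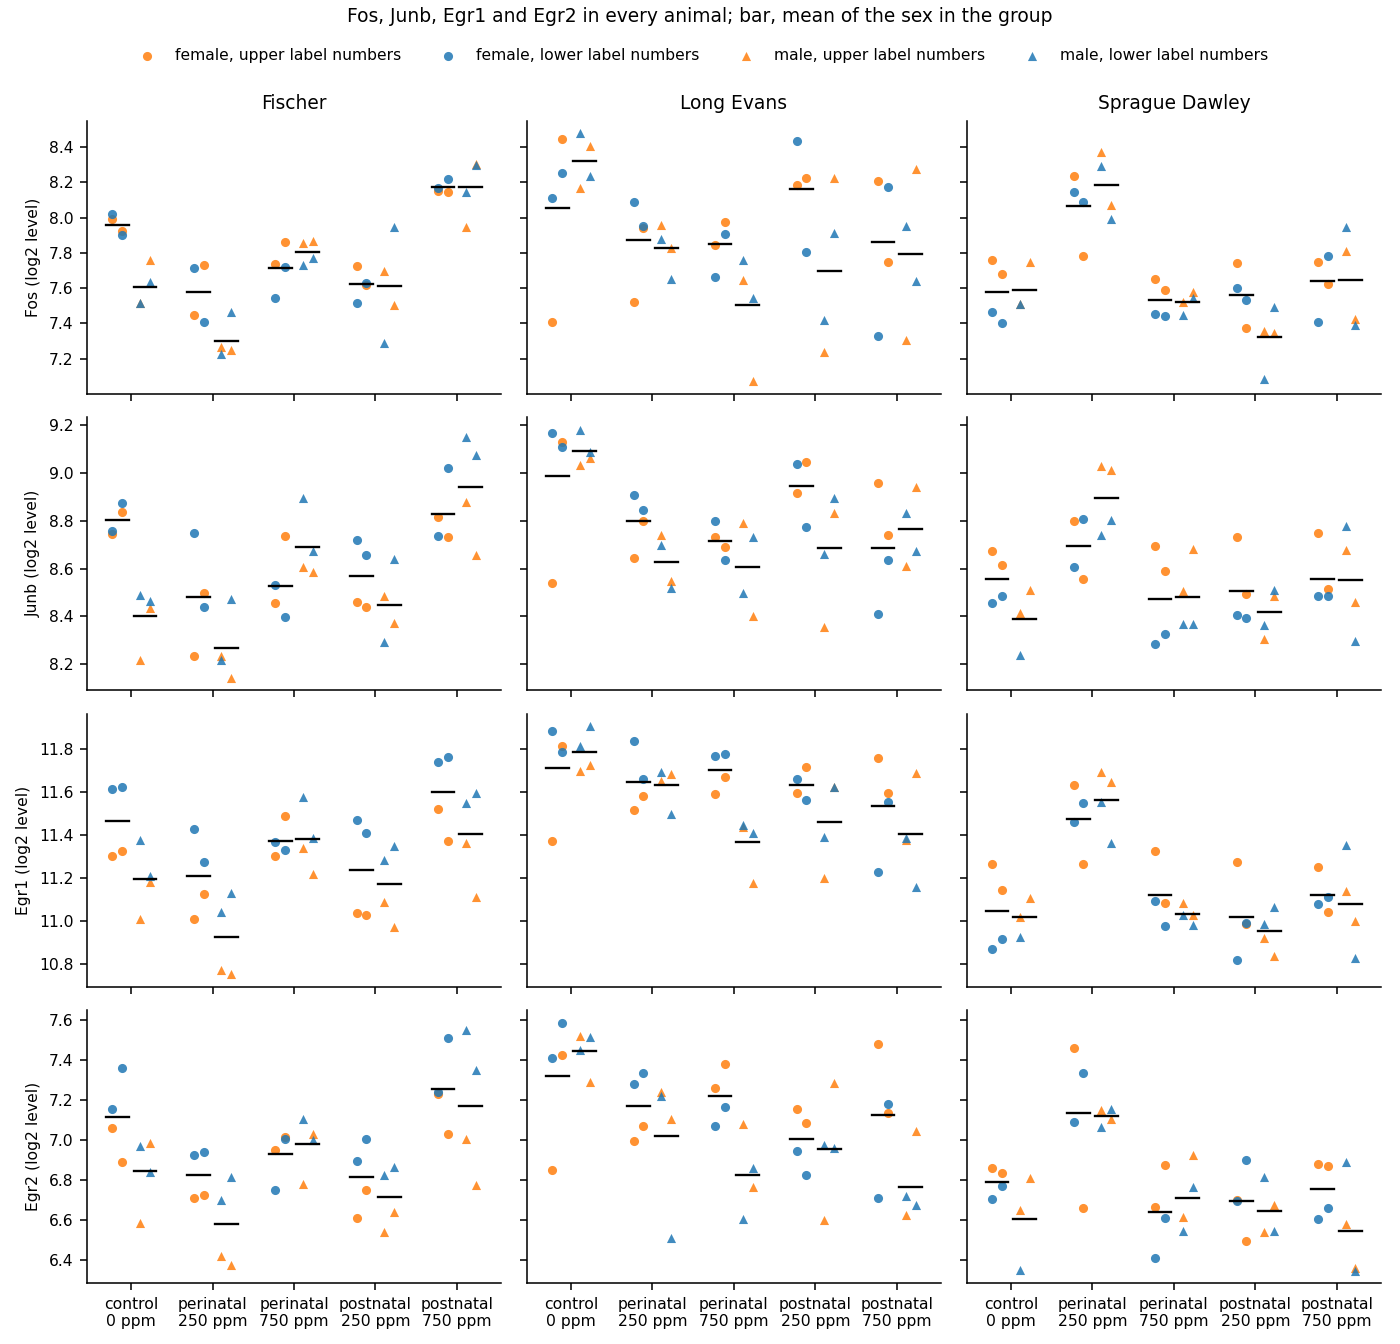
Fos, Junb, Egr1 and Egr2 in every rat (rows) by strain (columns), with control, perinatal 250 and 750 ppm and postnatal 250 and 750 ppm on the x axis and the log2 level on the y axis; circles are females, triangles males, orange upper and blue lower label numbers, and bars the mean of a sex in a group. For Fos, Fischer postnatal 750 ppm rats lie at 7.95 to 8.30 and Sprague Dawley perinatal 250 ppm rats at 7.78 to 8.37, each the highest set of its strain.

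Fos averaged higher after postnatal than after perinatal exposure in Fischer rats. It was the 1 member called of 9 and the 1 probe set called of all (0.00342%). In 16 postnatal rats Fos ran from 7.29 through a median of 7.95 to 8.30, and in 16 perinatal rats from 7.23 through 7.72 to 7.87. The ranges overlapped, and the means were 7.89 postnatal and 7.60 perinatal (0.29 ± 0.05, adjusted p = 0.0258, limma). Junb (0.20 ± 0.05, adjusted p = 0.517), Egr2 (0.16 ± 0.07, adjusted p = 1) and Egr1 (0.13 ± 0.06, adjusted p = 1) were not called. The Fos call was lost in 17 of 40 fits that left out 1 rat, each an exposed one (adjusted p up to 0.0746), and in a single fit of all strains (adjusted p = 0.377). Those 17 left out 1 of perinatal 250 ppm females 2 and 3, perinatal 750 ppm females 1 and 2, postnatal 250 ppm females 2, 3 and 4, postnatal 750 ppm females 1 and 2, perinatal 250 ppm males 1, 3 and 4, perinatal 750 ppm males 1 and 2, postnatal 250 ppm male 3 and postnatal 750 ppm males 2 and 4. Choroid plexus probe sets were lower after postnatal exposure in 11 of 12 (median −0.17). With their mean in the fit Fos differed by 0.29, adjusted p = 0.0195, and the cause of the difference was not tested. The Fos call was also lost within lower (0.33, adjusted p = 0.314) and upper label numbers alone (0.26, adjusted p = 0.977) and after further quantile normalization (adjusted p = 0.082).

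Egr1 in Sprague Dawley rats was lower after postnatal than after perinatal exposure, the 1 member called of 9, where 0.0411% of all probe sets were called. Egr1 ran from 10.82 through a median of 11.02 to 11.35 in postnatal rats and from 10.98 through 11.29 to 11.69 in perinatal rats. The means were 11.04 and 11.30 (−0.25 ± 0.05, adjusted p = 0.0485, limma), and the ranges overlapped. Fos (−0.28 ± 0.06, adjusted p = 0.0628) and Egr2 (−0.24 ± 0.07, adjusted p = 0.509) were not called, though Fos was with an intensity trend and robust variance (adjusted p = 0.0485) and with the filter (adjusted p = 0.0338). All 9 differences were negative, and 4 of 9 had an unadjusted p under 0.05.

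The Egr1 call was kept when the rat left out was control females 1 and 3, perinatal 250 ppm female 4, perinatal 750 ppm female 2, postnatal 250 ppm female 3, postnatal 750 ppm female 3, perinatal 250 ppm male 2, postnatal 250 ppm male 2 and postnatal 750 ppm male 1. It was lost in 30 of 39 fits that left out 1 (adjusted p up to 0.125), and with the arrays that go against their sex label left out (−0.22, adjusted p = 0.266). All 12 choroid plexus probe sets were lower after postnatal exposure (median −0.57, none called, rat means 6.89 to 10.30 postnatal and 7.01 to 10.39 perinatal), and with their mean in the fit Egr1 differed by −0.26, adjusted p = 0.0692. In Long Evans rats 0 of 9 members differed between periods by limma, where 0.065% of all probe sets were called, with 2 of 9 at an unadjusted p under 0.05. The Egr1 call was also lost within lower (−0.22, adjusted p = 1) and upper label numbers alone (−0.29, adjusted p = 0.642) and after further quantile normalization (−0.25, adjusted p = 0.0768).

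The Sprague Dawley perinatal 250 ppm rats stood above the other sets of their strain. Fos was 8.29, 7.99, 8.37 and 8.07 in these males and 8.15, 8.09, 8.24 and 7.78 in these females, and all 8 lay above the highest of the 7 controls (7.76). Fos ran from 7.44 to 7.65 after perinatal 750 ppm, from 7.09 to 7.74 after postnatal 250 ppm and from 7.39 to 7.94 after postnatal 750 ppm. Egr1 averaged 11.04 ± 0.14 in controls (SD, n = 7, a mean over rats, where the contrasts average the sexes), 11.52 ± 0.15 after perinatal 250 ppm (n = 8), 11.08 ± 0.11 after perinatal 750 ppm, 10.99 ± 0.14 after postnatal 250 ppm and 11.10 ± 0.16 after postnatal 750 ppm. Egr1 thus had the same highest set, as did Egr2 (7.13 ± 0.23 against 6.71 ± 0.17 in controls) and Junb (8.79 ± 0.17 against 8.48 ± 0.14).

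A contrast added after these values had been seen, the 750 minus 250 ppm difference after postnatal exposure minus that after perinatal exposure, therefore describes a set that already stood out. In Sprague Dawley rats it called Fos (0.79 ± 0.12, adjusted p = 0.00318) and Egr1 (0.56 ± 0.10, adjusted p = 0.0274) by limma, 2 of 9 members where 0.0445% of all probe sets were called. Junb (0.41 ± 0.10, adjusted p = 0.394) and Egr2 (0.43 ± 0.13, adjusted p = 0.771) were not called, all 9 values were positive, and 7 of 9 had an unadjusted p under 0.05. Of the activity-induced list Nr4a1 (0.72 ± 0.13, adjusted p = 0.0274) and Ccn1 (0.90 ± 0.17, adjusted p = 0.0334) were called, and no partner or upstream input was.

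Within lower (0.86, adjusted p = 0.699) and upper label numbers alone (0.73, adjusted p = 1) Fos was not called, nor was Egr1 (0.59, adjusted p = 0.929 and 0.53, adjusted p = 1), each from fewer rats. The Fos contrast was called whichever 1 of the 39 rats was left out, and was 0.82, adjusted p = 0.00625 with the arrays that go against their sex label left out. The Egr1 contrast was 0.62, adjusted p = 0.0263 without those arrays, and lost its call in 8 of the 39 fits (adjusted p up to 0.0684). Those 8 left out 1 of perinatal 250 ppm female 1, perinatal 750 ppm female 2, postnatal 250 ppm female 2, postnatal 750 ppm females 1 and 3, perinatal 250 ppm male 3, postnatal 250 ppm male 3 and postnatal 750 ppm male 1. Choroid plexus probe sets had a median of 0.04 (9 of 12 positive), and all 10 meninges (median 0.20) and all 7 mature oligodendrocyte probe sets (median 0.11) were positive, none called. The part of the meninges and oligodendrocyte genes in the result was not tested. In Long Evans rats the contrast called 0 of 9 members by limma, where 0.0103% of all probe sets were called, with 0 at an unadjusted p under 0.05.

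**Figure D3:**
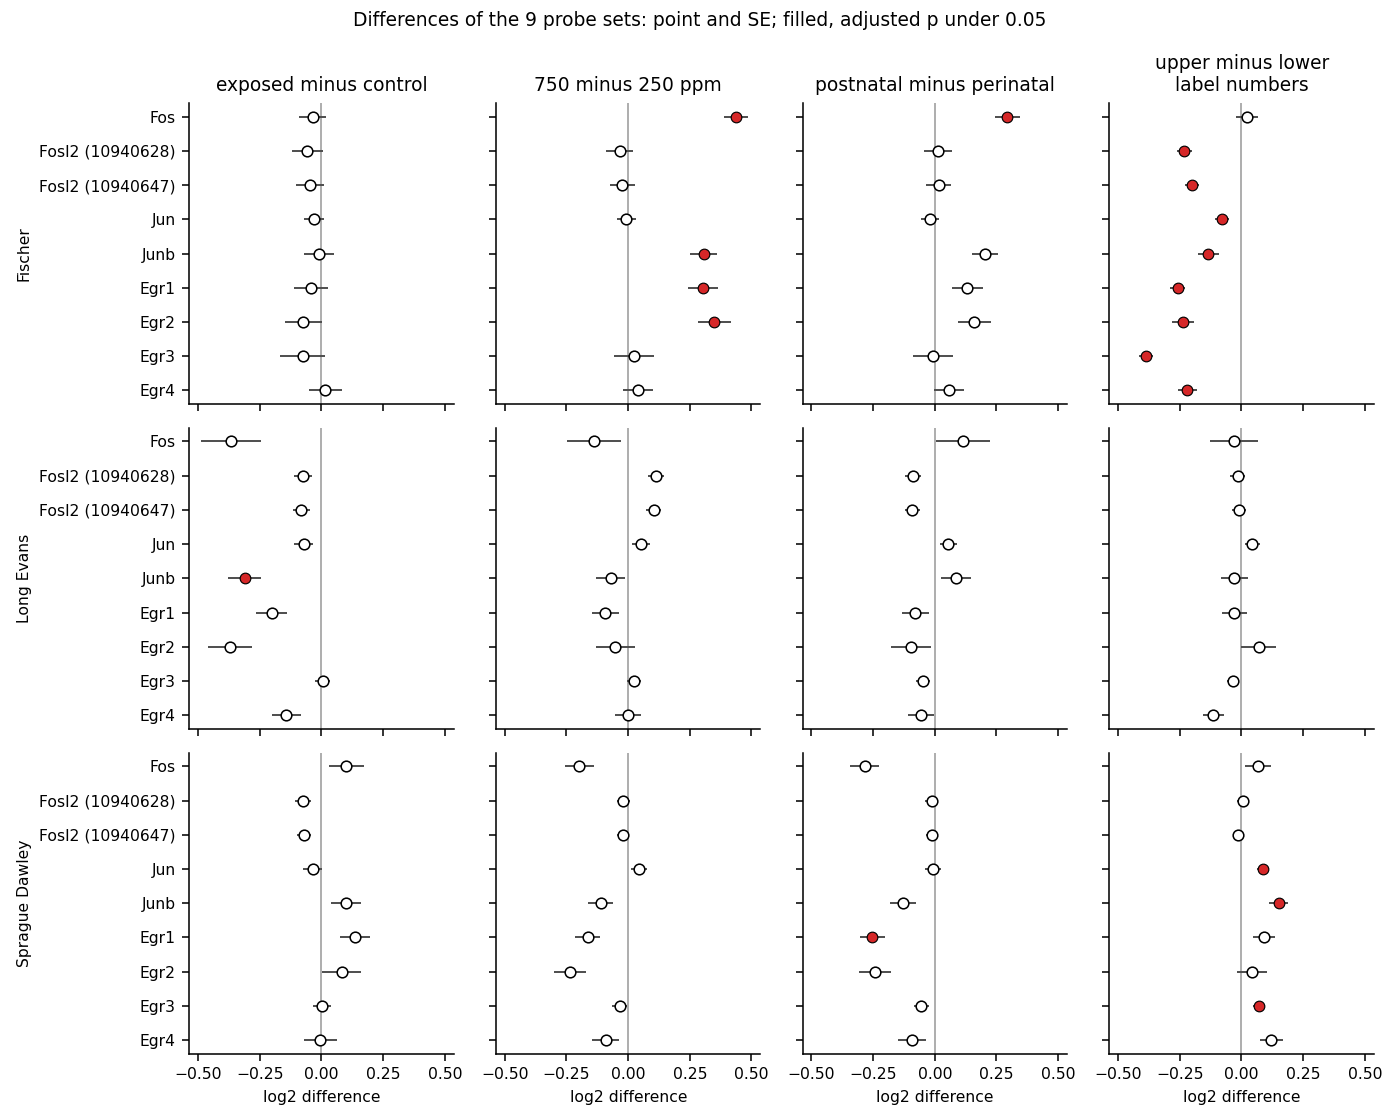
Log2 differences of the 9 member probe sets (listed down the y axis) by strain (rows) for exposed minus control, 750 minus 250 ppm, postnatal minus perinatal and upper minus lower label numbers (columns); points are limma estimates, lines 1 SE, and filled points have an adjusted p under 0.05. Fos, Junb, Egr1 and Egr2 lie at 0.30 to 0.44 for dose in Fischer rats, Junb at −0.31 for exposure in Long Evans rats and Egr1 at −0.25 for period in Sprague Dawley rats.

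The test of whether lead acted differently in females and males called 0 of 9 members by limma in Fischer, Long Evans and Sprague Dawley rats, where 0%, 0% and 0.00342% of all probe sets were called. An unadjusted p under 0.05 was found for 2, 2 and 0 of 9. The female minus male difference of the lead effect in Fischer rats was −0.39 ± 0.12, adjusted p = 1 for Junb and −0.31 ± 0.11, adjusted p = 1 for Fos. In Long Evans rats it was 0.50 ± 0.24, adjusted p = 1 for Fos and 0.36 ± 0.18, adjusted p = 1 for Egr2, and the sign was thus opposite in these strains.

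Upper and lower label numbers differed in several members. Upper Fischer rats were lower than lower ones in 8 of 9 member probe sets, where 60.9% of all probe sets were called. Egr3 averaged 9.63 in upper and 10.01 in lower rats (−0.39 ± 0.03, adjusted p = 2.39e-13), and Egr1 11.17 and 11.43 (−0.26 ± 0.03, adjusted p = 1.73e-08). Fos was not called (7.76 and 7.74, adjusted p = 0.682). In Long Evans rats 0 of 9 were called by limma, where 0.0993% of all probe sets were called, with 1 of 9 at an unadjusted p under 0.05. Among Sprague Dawley rats 3 of 9 were higher in upper rats, where 18.9% of all probe sets were called: Junb (0.15 ± 0.04, adjusted p = 0.00673), Jun (0.09 ± 0.02, adjusted p = 0.0108) and Egr3 (0.07 ± 0.03, adjusted p = 0.0488). Egr4 was called there with array weights (0.15, adjusted p = 0.00608), in a single fit (adjusted p = 0.0397) and with the filter (adjusted p = 0.0413). The Egr3 call was lost in 27 of 39 fits that left out 1 rat (adjusted p up to 0.122) and kept when that rat was control female 2, perinatal 250 ppm females 2 and 4, perinatal 750 ppm females 1 and 4, postnatal 250 ppm females 1 and 4, postnatal 750 ppm female 4, perinatal 250 ppm males 2 and 3 and postnatal 750 ppm males 1 and 3. Every group holds rats of both label sets. The Fischer dose difference of Fos was 0.43, adjusted p = 0.123 within lower and 0.45, adjusted p = 0.0445 within upper label numbers, each from fewer rats. Junb and Egr2 were not called in either set, at 0.29, adjusted p = 0.225 and 0.32, adjusted p = 0.091 within lower and 0.33, adjusted p = 0.122 and 0.38, adjusted p = 0.122 within upper numbers, and Egr1 was not called within lower ones (0.24, adjusted p = 0.091).

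Some members varied together between rats once group and label set had been removed. Pairs were tested by permuting rats within group and label set (100000 resamples, two-sided), with Benjamini-Hochberg adjustment over the 36 pairs of a strain. The 36 include the pair of Fosl2 probe sets, which read the same gene. Only member pairs were tested, so how often pairs of other probe sets would pass is not known. In 40 Long Evans rats 10 of 36 pairs had an adjusted p under 0.05 for Pearson's r. Egr1 and Junb had the highest r between genes (r = 0.85, rho = 0.79, permutation p = 0.00032 and 0.00102, adjusted p = 0.00384 and 0.00918), and r was 0.79 without the 2 rats farthest from the median of the first gene. Fos and Junb (r = 0.81, rho = 0.74, permutation p = 0.00067 and 0.00099, adjusted p = 0.00603 and 0.00918, r = 0.75 without 2 rats) and Egr2 and Junb (r = 0.81, rho = 0.73, permutation p = 0.00125 and 0.0028, adjusted p = 0.009 and 0.0202, r = 0.79 without 2 rats) came next. Here the first p of each pair is for r and the second for Spearman's rho.

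In 40 Fischer rats 2 of 36 pairs passed, Egr1 with Junb (r = 0.73, rho = 0.70, permutation p = 3e-05 and 7e-05, adjusted p = 0.00054 and 0.00126, r = 0.64 without 2 rats) and the pair of Fosl2 probe sets. In 39 Sprague Dawley rats 2 of 36 passed, Egr1 with Fos (r = 0.71, rho = 0.68, permutation p = 0.00077 and 0.0008, adjusted p = 0.0139 and 0.0144, r = 0.60 without 2 rats) and again the Fosl2 probe sets. The Fosl2 probe sets read the same gene, and their r was 0.99 in Fischer, 0.98 in Long Evans and 0.95 in Sprague Dawley rats. Within lower label numbers alone no pair passed in any strain, and within upper label numbers alone 3 passed in Fischer and 0 in the other strains. Each group then held at most 2 rats, so few rearrangements were possible. The smallest possible p was too large for a pair to pass by itself. A count of 0 there therefore does not show that members varied apart. The r of Egr1 and Junb within lower and within upper rats was 0.69 and 0.90 in Fischer and 0.70 and 0.95 in Long Evans rats.

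**Figure D4:**
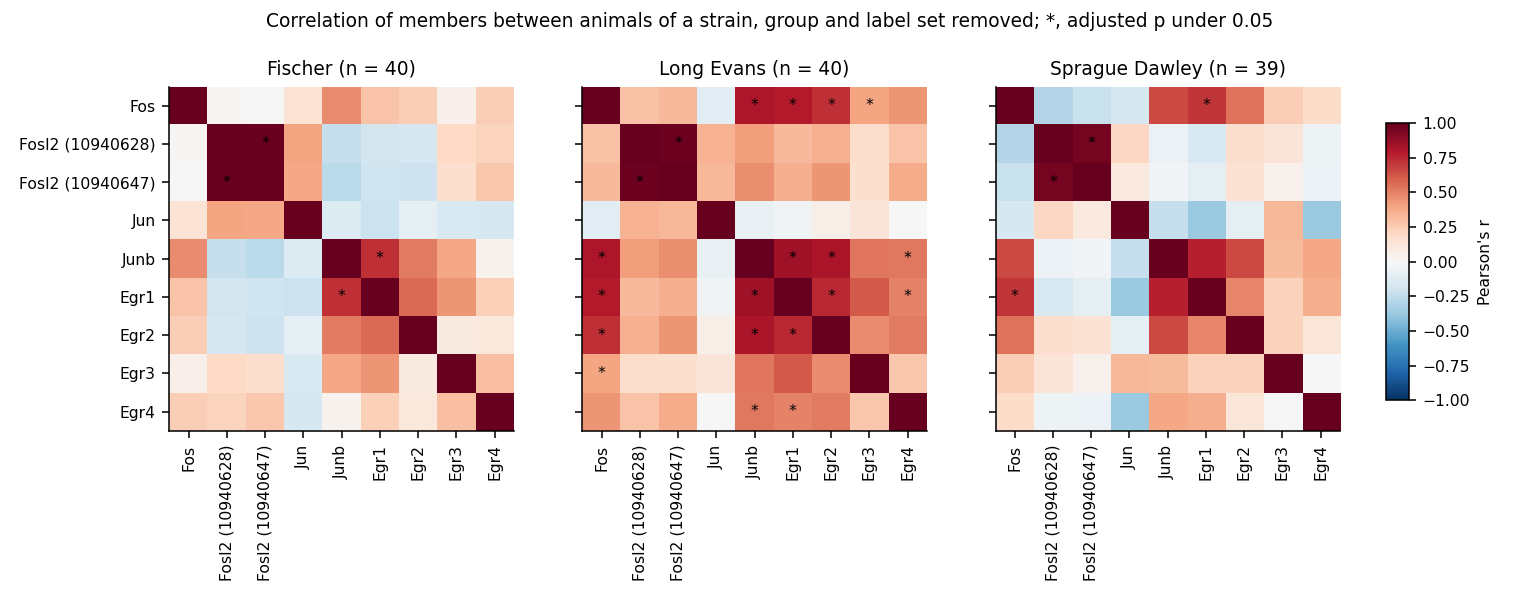
Pearson's r between member probe sets (both axes) across rats of a strain (Fischer n = 40, Long Evans n = 40, Sprague Dawley n = 39) with group and label set removed; colour runs from −1 (blue) to 1 (red), and stars mark an adjusted permutation p under 0.05. Fos, Junb, Egr1 and Egr2 form a red block in Long Evans rats, with r from 0.73 to 0.85.

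Over all arrays the members differed in how closely they followed one another, given here as a description over arrays that share dissection and RNA quality. The r of a member with the mean of the other members was 0.79 for Junb, 0.76 for Egr1, 0.68 for Egr2 and 0.68 for Fos. It was 0.40 for Egr3, 0.37 for Egr4, 0.20 and 0.22 for the Fosl2 probe sets and −0.07 for Jun, so Jun did not follow the others. Outside the members, the genes whose deviations were most like their mean were Arc (r = 0.73), Dusp1 (0.68), Npas4 (0.68), Nr4a1 (0.67), Nr4a3 (0.52), Apold1 (0.52), Ccn1 (0.49), Sik1 (0.47), Klf4 (0.45) and Cx3cl1 (0.44). The median r over 15310 probe sets with 1 gene symbol was 0.0084.

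Over the 30 groups, Fos, Junb, Egr1, Egr2 and Egr4 were all highest in Long Evans male controls. Fos averaged 8.32 ± 0.15 there (SD, n = 4) and 8.18 ± 0.18 in the next group, Sprague Dawley perinatal 250 ppm males, and their ranges overlapped. The Long Evans male controls averaged 9.09 ± 0.06 for Junb, 11.78 ± 0.09 for Egr1, 7.45 ± 0.11 for Egr2 and 8.51 ± 0.16 for Egr4. The lowest group was Fischer perinatal 250 ppm males for Fos (7.30 ± 0.11), Junb (8.27 ± 0.14), Egr1 (10.92 ± 0.19) and Egr4 (8.16 ± 0.19). Egr2 was lowest in Sprague Dawley postnatal 750 ppm males (6.55 ± 0.25), followed by Fischer perinatal 250 ppm males (6.58 ± 0.21), whose ranges overlapped.

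Egr3, both Fosl2 probe sets and Jun had other orders. Egr3 was highest in Long Evans perinatal 750 ppm females (10.16 ± 0.10) and lowest in Sprague Dawley postnatal 250 ppm males (9.63 ± 0.10). Fosl2 was highest in the same females (10.12 ± 0.10 and 10.02 ± 0.11 for its probe sets) and lowest in Sprague Dawley perinatal 750 ppm males (9.70 ± 0.04 and 9.59 ± 0.06). Jun was highest in Fischer postnatal 750 ppm males (10.05 ± 0.01) and lowest in Sprague Dawley postnatal 250 ppm males (9.72 ± 0.12). From the lowest to the highest rat, Fos ran from 7.07 to 8.48 and Jun from 9.57 to 10.16.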

How the data were processed

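RNA from flash-frozen hippocampi was extracted with Qiagen miRNeasy kits and measured on Affymetrix arrays, per the labels' protocols. The deposited values are log2 intensities per probe set that the authors made with RMA and Partek, per the submitters' processing notes, with versions not given in the sources used here. RMA normalizes between arrays, so a shift shared by all probe sets would not be seen. Probe sets were named from the platform annotation, where 15310 of 29214 had 1 gene symbol, 323 several and 13581 none.

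Groups came from the labels. limma 3.58.1 in R 4.3.3 fitted 1 mean per group, within each strain or, for control and strain differences, over all 30 groups, and p-values were adjusted over all 29214 probe sets within a contrast (Benjamini-Hochberg, called under 0.05). The label set was a term only in the label contrast and in an alternative. Depth is not defined for arrays, and the number of rats limits precision. Exposure, mean, sex, dose, period, strain and control contrasts were fitted, and the procedure was tested on simulated data. Correlations used 100000 permutations. Alternatives were a single fit, quantile normalization, a filter, array weights, robust variance, the label block, the choroid plexus mean, the arrays that go against their sex label and single rats left out. The interaction of dose and period and the fits within lower or upper label numbers were added after seeing the data. Named genes were all members, the 10 genes most like them, and pathway genes called for exposure, its mean or its strain difference and, per list and strain, the 3 with the smallest p of the mean effect; pathway genes named in other contrasts were chosen after their values were seen. The members and lists were chosen with earlier results of these data known. No 2 arrays held identical values.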

Additional observations from a re-analysis of the deposited data

Results flagged for a closer look

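Of 261 combinations of a member and a group of 4 rats, 10 held 1 rat far from the others (a gap to its neighbour above Dixon's 95% limit), where chance gives about 1 in 20, here 13. Junb was 8.5409, against 9.11 to 9.17 in the other 3 rats, in Long Evans female control 3, whose array goes against its sex label. Egr1 was 11.1778, against 11.41 to 11.45 in the other 3 rats, in Long Evans perinatal 750 ppm male 4. Fos was 7.4665, against 7.23 to 7.27 in the other 3 rats, in Fischer perinatal 250 ppm male 2. Jun was 9.7253, against 10.05 to 10.09 in the other 3 rats, in Long Evans female control 2, and 9.9105, against 10.05 to 10.05 in the other 3 rats, in Long Evans postnatal 750 ppm female 4. Sprague Dawley postnatal 750 ppm female 3 was high for both Junb (8.7492, against 8.48 to 8.51 in the other 3 rats) and Egr3 (9.8440, against 9.63 to 9.66 in the other 3 rats). Egr3 was 9.6140, against 9.71 to 9.73 in the other 3 rats, in Sprague Dawley female control 1. Egr4 was 8.6096, against 8.24 to 8.26 in the other 3 rats, in Sprague Dawley perinatal 750 ppm female 3, and Fosl2 10940647 was 9.7903, against 9.66 to 9.67 in the other 3 rats, in Sprague Dawley perinatal 250 ppm male 4.

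Effects that differed between groups, each by a limma test of the difference itself, were the Junb effect of lead in Long Evans minus that in Sprague Dawley rats (−0.411, adjusted p = 0.0338), and the dose difference after postnatal minus that after perinatal exposure in Sprague Dawley rats for Fos (0.7948, adjusted p = 0.00318) and Egr1 (0.5587, adjusted p = 0.0274). The last contrast was added after the data had been seen.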

How the results depend on the processing

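Over the calls of single members and every mean lead effect, 458 values kept their direction and their side of the threshold, 17 were no longer called, 3 became called and 6 changed sign. These totals leave out the fits within lower or upper label numbers alone, which use fewer rats. The label set as a block called 4 members between Sprague Dawley and Fischer controls, 2 in the Long Evans minus Sprague Dawley difference of the lead effect, 2 over the Fischer exposure contrasts and 2 over the Sprague Dawley ones. A single fit of all arrays called 3 members in the Long Evans mean effect and 3 over the Long Evans exposure contrasts. Members gained by name are given with the results. Array weights called 0 members in the Long Evans mean effect (Junb adjusted p = 0.0582), 2 over the Fischer and 3 over the Sprague Dawley exposure contrasts. A further quantile normalization called 1 member in the Sprague Dawley interaction of dose and period, 0 in the Sprague Dawley sex, dose and period contrasts and 0 over the Fischer exposure contrasts. An intensity trend with robust variance called 2 members in the Sprague Dawley sex, dose and period contrasts and 1 over its exposure contrasts. A filter that dropped probe sets under the 40th percentile, and so tested fewer, called 2 members in the Long Evans mean effect and 2 in the Sprague Dawley sex, dose and period contrasts. With the choroid plexus mean in the fit 3 members were called in the Fischer sex, dose and period contrasts and 0 in the Sprague Dawley ones. Without the arrays that go against their sex label 0 were called in the Sprague Dawley sex, dose and period contrasts. Within lower label numbers alone the counts were 4 for Sprague Dawley against Fischer controls, 2 for the Long Evans minus Sprague Dawley effect and 0 for the Sprague Dawley interaction, the Long Evans mean effect, the Fischer exposure contrasts and the sex, dose and period contrasts of Fischer and Sprague Dawley rats. Within upper label numbers alone they were 5 for Long Evans against Sprague Dawley controls, 2 for the Fischer sex, dose and period contrasts and 0 for the others just named. Correlated pairs numbered 21 in Fischer, 16 in Long Evans and 11 in Sprague Dawley rats when only group means were removed. Within lower label numbers they numbered 0 in each strain, and within upper ones 0 in Long Evans and Sprague Dawley rats. These subsets allow few rearrangements of rats, so their low counts do not show that members varied apart. The cause of these changes was not tested.

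Of the lost calls, those under the single fit, the choroid plexus mean and without the arrays that go against their sex label are given with the results, except Egr3 in the Sprague Dawley label contrast, which was lost without those arrays (0.08, adjusted p = 0.0653). With array weights it was Junb in the Long Evans mean effect (−0.29, adjusted p = 0.0582). After further quantile normalization the lost calls were Egr1 in the Sprague Dawley interaction (0.53, adjusted p = 0.0546), Egr1 in the Sprague Dawley period contrast (−0.25, adjusted p = 0.0768), Fos in Fischer postnatal 750 ppm males (0.51, adjusted p = 0.0871), Fos in the Fischer period contrast (0.29, adjusted p = 0.082), Jun in Sprague Dawley against Fischer controls (−0.13, adjusted p = 0.0863) and Junb in the Fischer label contrast (−0.08, adjusted p = 0.0926). Within lower or upper label numbers alone 29 values of named results were not called, as given with the results.

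Mean lead effects near 0 changed sign without being called. Egr2 in Sprague Dawley rats was −0.0040 within upper numbers. Egr3 in Long Evans rats was −0.0299 within lower numbers and −0.0082 without the arrays that go against their sex label. Egr3 in Sprague Dawley rats was −0.0105 with array weights and −0.0273 within upper numbers. Egr4 was −0.0069 in Fischer rats within upper numbers. For Egr4 in Sprague Dawley rats the value was 0.0163 with array weights, 0.0061 with the label block, 0.1125 within upper numbers and 0.0276 without the arrays that go against their sex label. Junb in Fischer rats was 0.0043 after further quantile normalization and 0.0193 within lower numbers. Leaving out 1 rat gave −0.0208 to 0.0295 for Egr3 in Long Evans, −0.0403 to 0.0466 for Egr3 and −0.0435 to 0.0336 for Egr4 in Sprague Dawley, and −0.0278 to 0.0474 for Egr4 and −0.0396 to 0.0058 for Junb in Fischer rats.

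Leaving out 1 rat changed counts as follows. Members called ranged from 1 to 3 between Sprague Dawley and Fischer controls, 0 to 2 in the Long Evans mean effect, 0 to 1 in the Long Evans minus Fischer and 0 to 3 in the Long Evans minus Sprague Dawley difference, the highest of these last 2 without Long Evans female control 3. They ranged from 3 to 5 in the Fischer and 0 to 2 in the Sprague Dawley sex, dose and period contrasts, 1 to 2 in the Sprague Dawley interaction, 0 to 2 over the Fischer and 0 to 1 over the Sprague Dawley exposure contrasts, and 2 to 5 for label numbers in Sprague Dawley rats. The rats on which single calls rest are named beside those calls. No paired analysis was possible because replicate numbers follow accession order and pair no rats across groups. The number of arrays limits the precision of every value.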
